A study of Mus musculus with 6 samples.

Results

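The cytosolic ribosomal proteins are described here at the transcript level in Mvt-1, a single cell line from a mouse mammary tumour with Myc and Vegf transgenes driven by the MMTV promoter. Members were taken by gene symbol, as Rpl and Rps genes with Rpsa and without the Rps6k kinases, and were kept where a probe was detected (detection p under 0.05) on at least 3 of 6 arrays. The symbols matched 93 probes of 63 genes, and 55 genes passed, out of 9478 genes tested in all. All cells had been kept without serum for 16 h. One group of 3 arrays came from cells given vehicle, and the other group of 3 from cells given 10 nM insulin for 90 min. Both groups share the cell line with its transgenes, and RNA of whole cultures was measured, so less RNA per cell and fewer cells of a kind cannot be told apart. Nothing in the labels says that the replicates were separate cultures, so p-values measure the spread between these arrays, which may be technical.

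Ribosomal proteins build the small and the large ribosomal subunit around the ribosomal RNAs, and the P proteins form the stalk on the large subunit that recruits elongation factors. Growing cells need them in matched amounts, and insulin, acting through AKT and mTOR, raises ribosome production. Many of their mRNAs begin with a terminal oligopyrimidine run, through which mTOR and the RNA-binding protein LARP1 control mainly translation. An expression array reads the amount of mRNA, and the ribosome loading of these mRNAs was not measured.

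Of the 45281 probes on each array, 38.9% to 40.3% were detected, and correlations between arrays over the genes tested lay between 0.988 and 0.992. Among epithelial markers 7 of 13 were detected. The keratins Krt8, with log2 intensities of 10.71 to 11.18, and Krt18, with 8.24 to 8.68, were among them. Epcam, Krt19 and Krt5 were detected on 0 arrays, and Cdh1 stood at 4.29 to 4.78, close to the lowest mean of any gene tested (4.34). Of 6 stromal markers 4 were detected, at 6.34 to 8.60, while 0 of 10 endothelial, leukocyte and fat cell markers with a probe were detected. Among the stromal markers Pdgfra, a growth factor receptor of fibroblasts, had the smallest p. Its log2 change, insulin minus vehicle, was -0.43 ± 0.16 (limma adjusted p = 0.359). Col3a1 stood at -0.13 ± 0.13, Dcn at -0.13 ± 0.14 and Pdgfrb at 0.041 ± 0.14. The part of stromal cells in the results was not tested.

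Insulin for 90 min left no ribosomal protein gene past the threshold. Of 55 genes, 0 rose and 0 fell (limma, Benjamini-Hochberg over all genes, lowest adjusted p = 0.33), where 44 of all 9478 genes, or 0.464%, were called, a count that ran from 2 to 68 with 1 array left out. At an unadjusted p under 0.05 stood 1 member, Rplp0, or 1.82% of the members, beside 11% of all genes. The share was lower among bright genes. At a mean log2 intensity of 10 or more it was 0 of 45 members and 3.19% of 1002 other genes (limma). The median log2 change, insulin minus vehicle, was -0.059 over the members (SD over members 0.12) and -0.015 over all genes tested. Individual changes ran from -0.35 to 0.23, 35 of them negative and 20 positive, and 36 were smaller in size than their moderated standard error. Positive changes made up 36.4% of the members and 46% of all genes tested. Standard errors, given after ± throughout, and confidence intervals come from limma's moderated variance. It draws the variance of each gene toward a value shared by all genes. Rpl39, with an SD of 0.041 over vehicle and 0.0165 over insulin arrays, thus has a standard error of 0.12.

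The confidence intervals give the size of change that these arrays leave possible. In 54 of 55 members the 95% confidence interval of the log2 change lay wholly within a 1.5-fold change in either direction, compared with 87.9% of all genes. In 52 members it lay within 0.5 on the log2 scale, compared with 74.6% of all genes. The members were brighter than most genes. Among genes with a mean log2 intensity of 10 or more, 100% of members and 97.1% of other genes had intervals within 1.5-fold. Within 0.5 the shares were 95.6% and 91.2%. Over the 55 members the lower bounds reached -0.62 (Rplp0) and the upper bounds 0.51 (Rpl23). The median standard error of the members was 0.13 with 3 arrays per group. The intervals do not mark which changes would pass the test after adjustment over all genes. Ddx21, which is not a member, did not pass at 0.49 ± 0.12 (limma adjusted p = 0.112). The intervals are relative to the other transcripts on the array, since arrays were normalised to one another. Many members lay near the top of the scale, 29 of them at a mean log2 intensity of 12 or more. The signal of Rplp1 equalled the highest of its array on vehicle array 1 (13113.4) and insulin array 2 (12460.9). Whether signals so high are compressed was not tested, so narrow intervals there may understate the possible change of the mRNA.

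**Figure D1:**
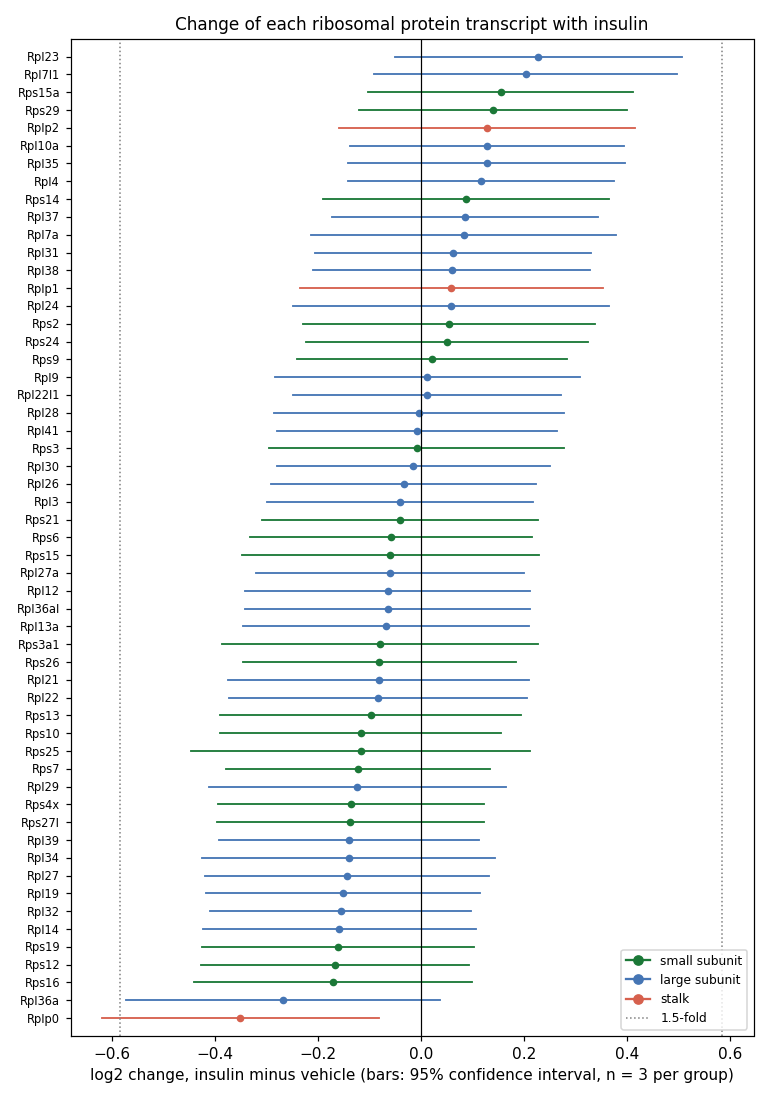
The log2 change of each of the 55 ribosomal protein genes (insulin minus vehicle, horizontal axis) with its 95% confidence interval, n = 3 arrays per group, coloured by subunit; dotted lines mark a 1.5-fold change. The interval of Rplp0 is the one that lies wholly below 0 and the one that crosses a dotted line.

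Averaged over the members, the arrays lay close together. The mean log2 intensity over the 55 genes was 11.405, 11.402 and 11.367 on the vehicle arrays. It was 11.366, 11.360 and 11.346 on the insulin arrays, which lay below all vehicle arrays, though the highest insulin array came within the last digit given of the lowest vehicle array. The group means differed by -0.034 on the log2 scale. Detected probes of members took 3.10% to 3.22% of the summed signal of a vehicle array and 3.02% to 3.13% of an insulin array, ranges that overlap. These shares are of the deposited signals of all probes, before correction and normalisation. The sum includes the background of probes that were not detected, so they are not shares of the mRNA. The median pairwise correlation of the members' deviations from their group means was -0.046 over 6 arrays, a description of values that share their arrays and their normalisation.

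**Figure D2:**
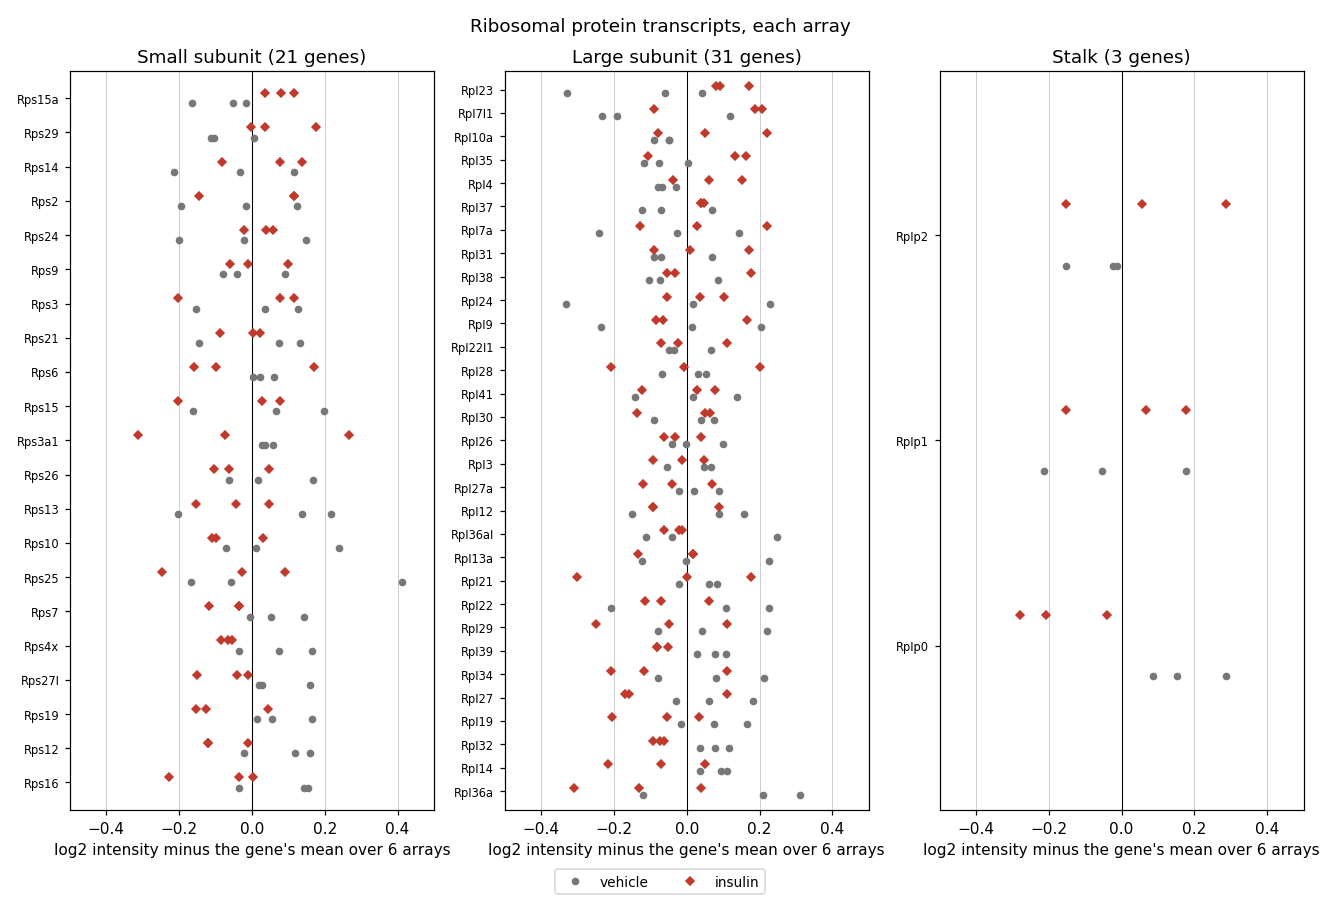
Each array's log2 intensity minus the gene's mean over the 6 arrays, for genes of the small subunit, the large subunit and the stalk (vertical axis, ordered by change within a panel); circles are vehicle and diamonds insulin arrays. The 2 kinds of point overlap for most genes, and for Rplp0 they do not.

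Of the stalk genes, Rplp0 had the lowest change of all members. Rplp0 encodes P0, which anchors the other P proteins to the large subunit, and its transcript is widely used as a reference in quantitative PCR. Its log2 intensity was 9.03, 8.83 and 8.89 with vehicle and 8.53, 8.70 and 8.46 with insulin. The insulin arrays were thus all below the vehicle arrays. The change was -0.35 ± 0.13 (moderated standard error, n = 3 per group, 1.28-fold lower), and it did not pass the test (limma adjusted p = 0.33, unadjusted p = 0.0137). A further, dimmer probe for Rplp0 read 114.5, 98.3 and 110.2 signal units with vehicle and 95.9, 102.0 and 98.0 with insulin, a log2 change of -0.31 ± 0.15 with overlapping groups.

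The partners of P0 on the stalk had positive values no larger than their standard errors. Rplp1 encodes P1, and its log2 intensity was 13.65, 13.26 and 13.42 with vehicle and 13.54, 13.65 and 13.32 with insulin, a change of 0.059 ± 0.14. Rplp2 encodes P2, with 12.98, 12.97 and 12.84 against 13.28, 13.05 and 12.84 and a change of 0.13 ± 0.14. For both genes the groups overlapped. Rplp1 turned negative without the second vehicle array (-0.037) or the second insulin array (-0.018), and Rplp2 stood at 0.019 without the first insulin array. The difference of either from Rplp0 was not tested.

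In the small subunit 21 genes were measured, with a median log2 change of -0.080 and a range from -0.17 to 0.15, 15 negative and 6 positive. Rps6, whose protein is the best known substrate of the S6 kinases downstream of insulin, read 11.71, 11.65 and 11.67 with vehicle and 11.82, 11.55 and 11.49 with insulin. The highest and the lowest of these values were both insulin arrays, and the change was -0.059 with a 95% confidence interval from -0.33 to 0.21. Rps16 (-0.17 ± 0.13), Rps12 (-0.17 ± 0.12) and Rps19 (-0.16 ± 0.13), a gene mutated in human Diamond-Blackfan anaemia, had the lowest changes of the subunit. A further probe for Rps12 gave 0.030 ± 0.15, and the mean of both its probes -0.069. Without the third insulin array Rps16 stood at -0.097. The highest were those of Rps15a (0.15 ± 0.12) and Rps29 (0.14 ± 0.12). Rps3, at the entry of the mRNA channel, stood at -0.0089 ± 0.14. A further probe for Rps3, also bright at a mean log2 intensity of 11.85, gave -0.16 ± 0.13, and the mean of both probes -0.083. None of these passed the test, the lowest adjusted p of the subunit being 0.675 (limma).

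In the large subunit 31 genes were measured, with a median log2 change of -0.034 and a range from -0.27 to 0.23, 19 negative and 12 positive. Rpl23, whose protein binds the p53 regulator Mdm2 when it is free of the ribosome, had the highest change of all members. Its log2 intensity was 12.25, 12.62 and 12.52 with vehicle and 12.66, 12.75 and 12.67 with insulin. All insulin arrays were above all vehicle arrays, the first vehicle array lay lowest, and the change was 0.23 ± 0.13 (limma adjusted p = 0.565). The 3 further probes for Rpl23 gave -0.056, -0.11 and 0.068, so the high value rests on 1 of 4 probes. Without the first vehicle array the change of the probe used was 0.12.

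Rpl36a was lowest in the large subunit, with 11.63, 11.73 and 11.30 against 11.46, 11.11 and 11.29. The groups overlapped, and the change was -0.27 ± 0.14 (limma adjusted p = 0.526). Rpl3, next to the peptidyl transferase centre, stood at -0.041 ± 0.12, Rpl13a at -0.069 ± 0.13, and Rpl41, the shortest ribosomal protein, at -0.0081 ± 0.13. Rpl39, which lines the exit tunnel of the nascent chain, stood at -0.14 ± 0.12, with its insulin arrays at 12.48, 12.48 and 12.51 below its vehicle arrays at 12.64, 12.67 and 12.59.

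Arrays of the 2 groups separated fully in a few members. The insulin arrays lay wholly on one side of the vehicle arrays in 8 of 55 members, or 14.5%, and in 15.9% of all genes. The 2 with higher insulin arrays were Rpl23 and Rps15a. The 6 with lower ones were Rplp0, Rpl32, Rpl39, Rps27l, Rps4x and Rps7, of which Rpl32, Rps4x and Rps7 are named after their values were seen.

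Several members belong to pairs of close paralogs, some of which enter the ribosome in place of the standard protein. Rpl22l1, the paralog of the T cell tumour suppressor Rpl22, read 7.44, 7.46 and 7.56 with vehicle and 7.42, 7.60 and 7.47 with insulin, a change of 0.011 ± 0.12. Rpl22 itself stood at -0.084 ± 0.14. Rpl36al, which encodes a protein nearly identical to that of Rpl36a, stood at -0.065 ± 0.13. In Rps27l, a p53-inducible paralog of Rps27, the vehicle arrays at 12.75, 12.76 and 12.89 were above the insulin arrays at 12.58, 12.69 and 12.72, with a change of -0.14 ± 0.12 (limma adjusted p = 0.737). Rpl7l1, an assembly factor related to Rpl7, had 8.37, 8.02 and 8.06 against 8.46, 8.44 and 8.16, a change of 0.20 ± 0.14 with overlapping groups, and its further, dimmer probe gave 0.19 ± 0.13 with groups that did not overlap. Paralogs and processed pseudogenes share sequence with these genes, and whether a probe also reads a copy was not tested. The standard partners Rps27 and Rpl7, and Rps27a, Rpl5, Rpl10, Rpl10l and Rpl11, are not analysed here.

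The remaining 8 genes matched by symbol were detected on fewer than 3 arrays and had no measured change. Rpl3l and Rpl39l, paralogs known from striated muscle and from testis, and Rps4l were detected on 0 arrays. Rpl6, Rps20, Rps23, Rpl17 and Rpsa, which encode standard proteins of the ribosome, were detected on 0 to 2 arrays by their best probe, with signals of 70.5 to 85.3 where the array medians were 76.0 to 77.1. The probes used for the 55 members were detected on all 6 arrays, and Rpl14 had the lowest mean log2 intensity among them, 5.11. Its values were 5.15, 5.22 and 5.20 with vehicle and 4.89, 5.04 and 5.16 with insulin. Among single probes, 1 for Rpl29 was detected on 3 arrays (signals of 73.3 to 83.8) and stood just inside, and 1 for Rpl37 on 2 arrays (71.9 to 81.7) just outside.

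Several genes were read by more than 1 probe. A further 25 detected probes covered 18 of the 55 genes, and 12 of the 25 had the sign of the probe used. Of these further probes 0 passed the test over all probes (limma), where 18 of 15007 detected probes, or 0.120%, were called. An unadjusted p under 0.05 was found for 4 of the 25 and for 10.1% of all detected probes. Their changes ranged from -0.42 to 0.40, and those of a mean log2 intensity under 8 had an SD of 0.25 (14 probes), those above one of 0.10 (11 probes).

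The further probes with the largest changes were all dim. Rps13 had a dim probe with signals of 126.6, 123.2 and 132.2 with vehicle and 158.6, 141.0 and 153.1 with insulin, a log2 change of 0.40 ± 0.14, while the probe used gave -0.098 ± 0.14. The dim probe for Rpl30 gave -0.42 ± 0.14 beside -0.015 ± 0.13 for the probe used. That for Rpl28 gave -0.39 ± 0.13 beside -0.0044 ± 0.13. For each of these dim probes the groups did not overlap, and the adjusted p over probes was 0.335, 0.33 and 0.316 (limma). The part of low brightness in these values was not tested.

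**Figure D3:**
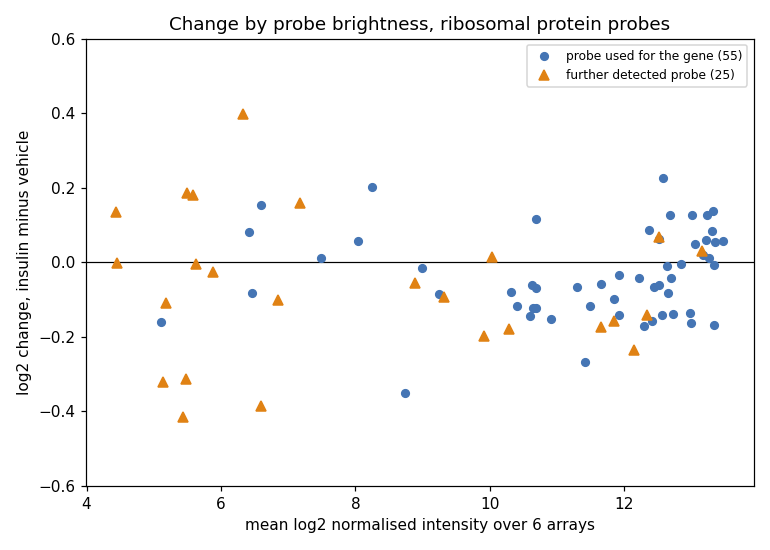
The log2 change (insulin minus vehicle) of every detected ribosomal protein probe against its mean log2 intensity over 6 arrays; circles are the 55 probes used, triangles the 25 further probes. Changes past 0.30 in size came from probes with a mean log2 intensity under 9.

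The members' probes were brighter than most, so the changes are also given by brightness. Of the 55 genes, 45 had a mean log2 intensity of 10 or more, and their median change was -0.060 with 15 positive. The other 1002 genes of that brightness had a median of 0.00047 with 502 positive, and 1 was called. Their median residual SD was 0.13, against 0.12 for the members. In the 10 dimmer members the median was -0.0019 with 5 positive, beside -0.019 over 8421 other dimmer genes. These are descriptions, with no test of the difference.

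The start sites are shown because the pyrimidine run at the first base is the feature by which these mRNAs are known. Members with and without it exactly at the annotated start can be set side by side. RefSeq start windows (GRCm38.p6) were matched for 47 of the 55 genes, at 56 annotated starts. Each sequence runs 5′ to 3′ on the gene's strand, from 30 bases before the start to 30 bases from it. Capitals mark the annotated first base and, where it is a C followed by at least 4 pyrimidines, the whole run. The first group has a run and includes Rps6, and the second has none and holds the 3 members with the lowest changes and Rpl23 with the highest.
Rps6 (chr4:86857338-86857397, minus strand): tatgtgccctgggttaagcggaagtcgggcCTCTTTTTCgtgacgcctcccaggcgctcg
Rps10 (chr17:27635215-27635274, minus strand): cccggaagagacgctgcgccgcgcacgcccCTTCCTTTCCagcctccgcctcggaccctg
Rpl35 (chr2:39005102-39005161, minus strand): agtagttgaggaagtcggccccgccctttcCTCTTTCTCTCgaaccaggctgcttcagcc
Rplp2 (chr7:141447621-141447680, plus strand): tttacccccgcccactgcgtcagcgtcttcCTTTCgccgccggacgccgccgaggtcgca
Rps15a (chr7:118116118-118116177, minus strand): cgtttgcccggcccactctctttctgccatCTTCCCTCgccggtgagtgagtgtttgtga
Rplp0 (chr5:115559437-115559496, plus strand): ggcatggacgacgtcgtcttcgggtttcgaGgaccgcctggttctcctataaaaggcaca
Rpl36a (chrX:134585624-134585683, plus strand): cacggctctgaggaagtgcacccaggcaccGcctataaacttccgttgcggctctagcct
Rps16 (chr7:28350659-28350718, plus strand): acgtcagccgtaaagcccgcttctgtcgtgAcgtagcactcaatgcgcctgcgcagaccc
Rpl23 (chr11:97782410-97782469, minus strand): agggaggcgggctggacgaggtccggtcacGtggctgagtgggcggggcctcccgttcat

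Exactly at the annotated start, such a run stood at 9 of 56 member starts, or 16.1%, and at 2.51% of 32851 annotated starts of all genes. Within 5 bases either side it stood at 44.6% and 18.3%. An annotated start can lie some bases from the one a cell uses, so a missing run says only that these letters are not there. The 9 genes with a run at the start were Rps6, Rps10, Rps15a, Rps21, Rpl14, Rpl28, Rpl35, Rpl38 and Rplp2, with log2 changes from -0.16 to 0.15 and a median of -0.0044, 4 of them positive. The 38 genes without it had changes from -0.35 to 0.23 and a median of -0.065, 13 of them positive. Some of the 38, among them Rpl19, Rpl34 and Rpl39, have a run within 5 bases of an annotated start. The comparison therefore does not divide mRNAs that carry a run from mRNAs that lack it. Both ranges include 0.

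The promoters were also searched, on both strands of the window from 250 bases before to 50 after the start, for CCGGAAG, the core of ETS factor sites, AAGATGG, a core of YY1 sites, and TATAAA, the TATA box. CCGGAAG and AAGATGG can share letters where they meet. CCGGAAG was found at 37.5% of member starts and 8.86% of all starts. AAGATGG was found at 14.3% and 6.34%, and TATAAA at 10.7% and 13.6%. The 20 genes with CCGGAAG had a median log2 change of -0.060, as had the 27 without it. The 55 genes lay on 17 chromosomes, with at most 10 on one of them, chromosome 7.

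Other genes of the translation machinery gave further values. Of 18 genes for elongation factors and other mRNAs with an oligopyrimidine start, 17 were tested, with 0 past the threshold, 0 at an unadjusted p under 0.05 (limma), a median log2 change of -0.031, and 13 negative. Eef1a1, the main elongation factor that brings aminoacyl transfer RNA to the ribosome, stood at -0.041 ± 0.12 and Eef2, which drives translocation, at 0.14 ± 0.17. The smallest p of the list was that of Eif3h, a subunit of initiation factor eIF3, at -0.34 ± 0.18 (limma adjusted p = 0.526).

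Of 15 regulators of these mRNAs 13 were tested and 0 passed, with a median of 0.042. An unadjusted p under 0.05 was found for 1 of them, or 7.69%, beside 11% of all genes (limma). Eif4ebp2, a repressor of the cap-binding protein eIF4E that mTOR inactivates, had the smallest p. Its change was 0.74 ± 0.21, a value that did not pass the test (limma adjusted p = 0.176) and whose groups overlapped. Larp1 stood at 0.19 ± 0.16 and Mtor at 0.048 ± 0.14. Of the genes listed for the sensing of free ribosomal proteins and the p53 response, 3 of 5 were tested. Of these 0 passed, nor did any reach an unadjusted p under 0.05 (limma). Cdkn1a, a p53 target that arrests the cell cycle, stood at 0.25 ± 0.14 (limma adjusted p = 0.565) and Mdm2 at 0.037 ± 0.15.

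Genes of ribosome assembly, of which 22 of 25 were tested, had a median log2 change of 0.15, with 18 positive, 4 negative and 0 past the threshold. Ddx21, a helicase of nucleolar ribosome production, had the smallest p of this list, at 0.49 ± 0.12 (limma adjusted p = 0.112). In this list 5 of 22, or 22.7%, had an unadjusted p under 0.05, beside 11% of all genes. Mitochondrial ribosomal protein genes, which serve the separate ribosome of that organelle, numbered 72, with 0 past the threshold, a median of -0.037, and 5, or 6.94%, at an unadjusted p under 0.05, beside 11% of all genes. The smallest p among them was that of Mrps16, at -0.39 ± 0.13 (limma adjusted p = 0.248). The differences of these lists from the cytosolic ribosomal proteins were not tested.

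The members' median was also followed through other ways of processing the arrays. It was below 0 in each of 16 alternatives, and 0 members passed the threshold in any of them (limma). The alternatives reuse the same arrays, so they do not add independent evidence on the sign. Of all genes, the alternatives called from 0 of 19057, without the filter on dim probes, to 83 of 9478, with trended and robust variance. Detection on all arrays, trended and robust variance, and the replicate block left the members' median as reported, at -0.059.

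**Figure D4:**
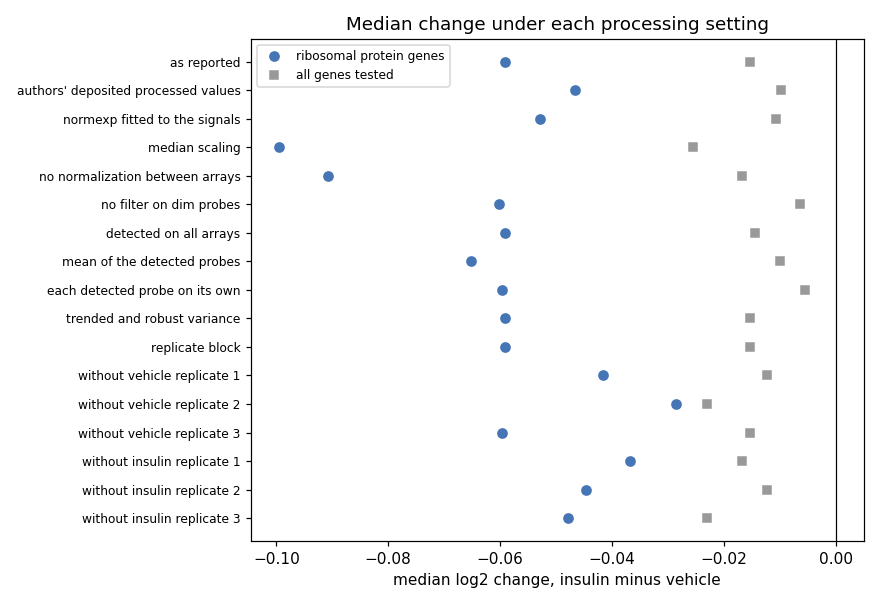
Median log2 change (insulin minus vehicle) of the ribosomal protein genes (circles) and of all genes tested (squares) with the processing as reported and under each of 16 alternatives. The members' median lies between -0.10 and -0.028 throughout, below that of all genes in each setting. Without vehicle replicate 2 the medians are close, at -0.028 and -0.023. The settings share the same arrays, so the repeated sign is no measure of stability.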

How the data were processed

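Total RNA of Mvt-1 cells was amplified, labelled with biotin and read on 6 Illumina beadchips, per the labels' protocols. The deposited non-normalized values are probe intensity values on a linear scale, each with a detection p-value, per the file headers. GenomeStudio was used per the submitters' processing notes, with no version given. The authors' deposited processed intensity values equalled a quantile normalization of those signals to within 3.33e-06, without background correction.

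Signals were corrected and quantile-normalised with limma 3.58.1 (neqc, offset 16) in R 4.3.3, on the log2 scale. Probes detected on at least 3 arrays and carrying 1 symbol in the platform annotation were kept, and the brightest probe stood for each gene, giving 9478 genes. Insulin was compared with vehicle across all genes with lmFit and eBayes (two-sided, Benjamini-Hochberg, threshold 0.05). The procedure was tested on simulated data with known changes, each larger in size than that of any member. That test does not bear on changes of the members' size. Groups and replicate numbers came from sample titles, and the number of arrays limits the precision.

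Members and lists were chosen with earlier results of these data known. Named were members past the threshold, the 5 highest and 5 lowest changes, members listed by role, and in other lists the smallest p. Eef1a1, Eef2, Larp1, Mtor, Mdm2, Rpl14 and the genes with dim further probes were named after their values were seen. Some listed genes are not analysed here. Alternatives covered correction, scaling, filter, probe choice, variance, replicate block and each array left out.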

Additional observations from a re-analysis of the deposited data

How the results depend on the processing

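In all 16 alternatives 0 ribosomal protein genes passed the threshold (limma), with a lowest adjusted p of 0.185 for Rplp0 with normexp fitted to the signals. Their median log2 change was negative in 16 of 16, from -0.10 with median scaling to -0.028 without vehicle replicate 2, and 18 to 24 of 55 changes were positive (23 of 63 without the filter on dim probes and 28 of 80 over single probes). For the 11 named genes whose change was at least its standard error, 0 of 176 values turned sign. That count is no measure of stability. The settings of filter, single probes, variance and replicate block left the change of each named gene as reported, so its sign could not turn there. Some of these genes were also picked for their extreme changes in these same data. For the other 10 named genes 15 of 160 did, in 8 genes, each with 1 array left out, and the cause was not tested. With 1 array left out the log2 change ranged from -0.15 to 0.025 for Rpl13a, from -0.21 to 0.0083 for Rpl22, from -0.041 to 0.049 for Rpl22l1 and from -0.14 to 0.042 for Rpl36al. It ranged from -0.082 to 0.059 for Rpl41, from -0.037 to 0.17 for Rplp1, from -0.091 to 0.095 for Rps3 and from -0.16 to 0.0043 for Rps6. The count of all genes called, 44 as reported, was 22 with the authors' deposited processed values, 29 with normexp fitted to the signals, 18 with each detected probe on its own and 83 with trended and robust variance. It was 0 without the filter on dim probes, where 19057 genes were tested in place of 9478. With 1 array left out it ranged from 2 to 68, at 12, 2 and 3 without vehicle replicates 1, 2 and 3, and 6, 11 and 68 without insulin replicates 1, 2 and 3. With the replicate number as a block it was 75, and 0 members passed. The numbers share no stated batch, and deviations of same-numbered arrays correlated at 0.09, 0.15 and 0.13. Rpl23 ranged from 0.033, with the mean of its probes, to 0.30. The least signal over background was that of the 5 members with a mean log2 intensity under 8, Rpl14, Rpl21, Rpl22l1, Rpl7a and Rps15a.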
